A study of Mus musculus with 3 samples.

Results

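Mitochondrial ribosomal proteins were examined in the cortex of adult mice carrying 1 altered copy of Gtf2i, the gene for the transcription factor TFII-I. The members are all gene probes whose accession belongs to a RefSeq gene with a symbol that starts with Mrpl or Mrps followed by a digit, 105 probes for 75 genes of 15724 named genes on the arrays. Of 78 protein-coding genes with such a symbol, Mrpl41, Mrpl44 and Mrpl48 had no probe matched by accession and were not analysed here. All 105 probes passed the filter on dim spots, 104 of them on all 3 arrays and the probe of Mrps18b on 2.

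Mutant animals were Gtf2i(+/Δex2), heterozygous for an allele named for a deletion of exon 2, and controls were wild type (+/+). Animals of both genotypes were 16 weeks old, on a background of 98.4% C57BL/6J with 1.6% 129Sv/CD1. Each of 3 two-colour Agilent arrays set mutant RNA, pooled from 3 to 5 mice, against wild-type RNA pooled in the same way, and the mutant carried Cy3 except on replicate 2, where it carried Cy5. A pool gives no value for a single mouse. Whether each array had pools of its own is not in the labels, so a p-value here reflects the spread from array to array, which may be technical. Having 3 arrays limits the precision.

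The mitochondrial ribosome translates the few messages of the mitochondrial genome, most of which encode subunits of the respiratory chain. All of its proteins are encoded in the nucleus, made on cytosolic ribosomes and imported, and they assemble with ribosomal RNA transcribed inside the organelle. Many descend from bacterial ribosomal proteins, and the others are found in mitochondrial ribosomes only. Neurons draw heavily on oxidative phosphorylation, and inherited defects of several of these proteins cause encephalopathy or cardiomyopathy in humans.

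Nuclear genes for mitochondrial proteins often carry promoter elements for NRF-1, for ETS factors such as GABPA, and for YY1. RefSeq promoter windows on build GRCm38.p6, 250 bases before to 50 after the start, were matched for 66 of the 75 member genes. Searched on both strands, the NRF-1 core GCGCATGCG was in 7 member genes (10.6%) against 1.95% of all 27025 genes in the table, the ETS core CCGGAAGT in 11 (16.7%) against 4.31%, and the YY1 core AAGATGGCG in 8 (12.1%) against 1.64%. At least 1 of the 3 was found in 25 members (37.9%) against 7.48% of all genes, and the median GC content of the windows was 58.7% against 52.7%. These matches describe letters, not bound sites. The last 150 bases before the start follow for 6 members, with the matches in capitals on either strand, because they set members that were higher, lower and not called side by side.
Mrpl3: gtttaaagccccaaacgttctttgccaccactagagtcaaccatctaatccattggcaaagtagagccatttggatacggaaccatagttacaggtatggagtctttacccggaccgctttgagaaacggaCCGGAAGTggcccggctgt
Mrpl36: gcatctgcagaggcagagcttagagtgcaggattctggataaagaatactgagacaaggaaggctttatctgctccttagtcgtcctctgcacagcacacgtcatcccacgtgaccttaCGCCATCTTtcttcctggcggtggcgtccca
Mrps27: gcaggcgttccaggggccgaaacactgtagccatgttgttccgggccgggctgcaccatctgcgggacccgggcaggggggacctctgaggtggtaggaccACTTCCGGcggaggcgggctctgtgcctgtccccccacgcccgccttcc
Mrpl27: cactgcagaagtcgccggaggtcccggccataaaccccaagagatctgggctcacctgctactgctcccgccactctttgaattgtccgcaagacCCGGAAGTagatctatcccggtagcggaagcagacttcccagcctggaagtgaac
Mrpl32: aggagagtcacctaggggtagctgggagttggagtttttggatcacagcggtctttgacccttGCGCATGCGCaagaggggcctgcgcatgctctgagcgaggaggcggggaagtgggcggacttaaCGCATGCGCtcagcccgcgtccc
Mrpl9: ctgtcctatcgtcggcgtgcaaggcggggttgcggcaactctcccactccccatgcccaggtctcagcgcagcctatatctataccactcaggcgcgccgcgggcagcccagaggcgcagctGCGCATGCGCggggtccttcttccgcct

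Mrpl3 (chr9:105053118-105053267, plus strand, ETS core) and Mrpl36 (chr13:73330859-73331008, plus strand, YY1 core) were called higher in the mutant. Mrps27 (chr13:99344636-99344785, plus strand) and Mrpl27 (chr11:94653641-94653790, plus strand) also hold an ETS core and were called lower. Mrpl32 (chr13:14613038-14613187, minus strand) has 3 NRF-1 matches and Mrpl9 (chr3:94443186-94443335, plus strand) has 2, and neither was called. In both genes a palindromic stretch reads as the NRF-1 core on each strand, so overlapping matches on opposite strands are counted as 2. By the brightest probe of each gene, 3 of the 25 genes with a match were higher and 5 lower, beside 7 higher and 9 lower of the 41 without one. Of all named genes 16.0% were higher and 20.0% lower by the same measure. Among the 7 genes with the NRF-1 core 0 were called by limma, with 2 at an unadjusted p under 0.05, beside 10 higher and 14 lower of the 59 without it. With the ETS core 2 of 11 genes were higher and 2 lower, beside 8 and 12 of the 55 without it. With the YY1 core 1 of 8 was higher and 4 lower, beside 9 and 10 of the 58 without it.

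Each array value given is a log2 ratio, mutant signal over wild-type signal. This direction is likely, resting on the titles of the samples, the deposited readme and the control spots. A probe was called when the mean of the 3 arrays differed from 0 in limma at a Benjamini-Hochberg adjusted p under 0.05 over all 27530 tested probes. With that direction, both Gtf2i probes were lower on every array, at -0.32 ± 0.05 and -0.47 ± 0.04 (SD, n = 3; limma adjusted p 0.00505 and 0.0026). The 8 cortical neuron markers were all tested, and by brightest probe 4 were called lower, Slc17a7, Tbr1, Camk2a and Syt1, beside 20.0% of all named genes. The other 4 were not called, and the highest of them read 0.33. Of the 16 probes of these markers 8 were lower and 2 higher. Ratios of the member probes correlated across probes at r = 0.782 between replicates 1 and 2, 0.841 between 1 and 3 and 0.595 between 2 and 3, and probes are not independent replicates.

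Mitochondrial ribosomal protein transcripts moved in both directions, and every difference was small. Of the 105 probes, 40 were called (38.1%), beside 33.9% of all tested probes. Those called lower numbered 27 (25.7%), beside 18.9% of all, and those called higher 13 (12.4%), beside 15.0% of all. These shares of all probes are not matched for brightness. Member probes had a median signal of 1226, beside 362 over all tested probes, and bright probes were called more often. In the brightest of 4 equal groups of all tested probes, which held 62 member probes, 26.6% of all were lower and 23.6% higher. Taking the brightest probe of each gene, 20 of 75 genes were lower (20.0% of all named genes were) and 11 higher (16.0% of all). The median over the member probes was -0.094, beside -0.0016 over all tested probes, and 70 of 105 probes lay below 0. The array medians were -0.07, -0.06 and -0.10 on replicates 1, 2 and 3. Probe means ran from 77.5% to 134% of wild type, so 0 members passed 1.5-fold. Few probes reached that size at all, 572 of the 27530 tested. Called members differed by a median of 0.19 in absolute log2 ratio, beside 0.26 for all called probes. On all 3 arrays, 75 of the 105 kept one sign (71.4%), beside 65.1% of all tested probes.

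The count of calls depended on replicate 1. Without it 3 member probes were called, for Mrpl3, Mrps36 and Mrpl4, beside 8.75% of all tested probes, against 33 without replicate 2 (25.6% of all) and 34 without replicate 3 (35.9% of all). With replicates 1 and 2 averaged and counted as 1, 17 were called, beside 18.6% of all. The rule the readme gives for the authors' own selection is a limma B statistic above 0. By it 4 of the 105 member probes passed, beside 9.67% of all tested probes. They were for Mrps36, Mrpl3, Mrps16 and Mrpl45, all higher. Other probes of these genes differed: that of Mrpl45 was called lower at -0.17, and that of Mrps36 read 0.01 without a call. Of the other Mrpl3 probes, A_52_P606303 was called higher at 0.31 and A_51_P348976 read 0.02 without a call.

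**Figure D1:**
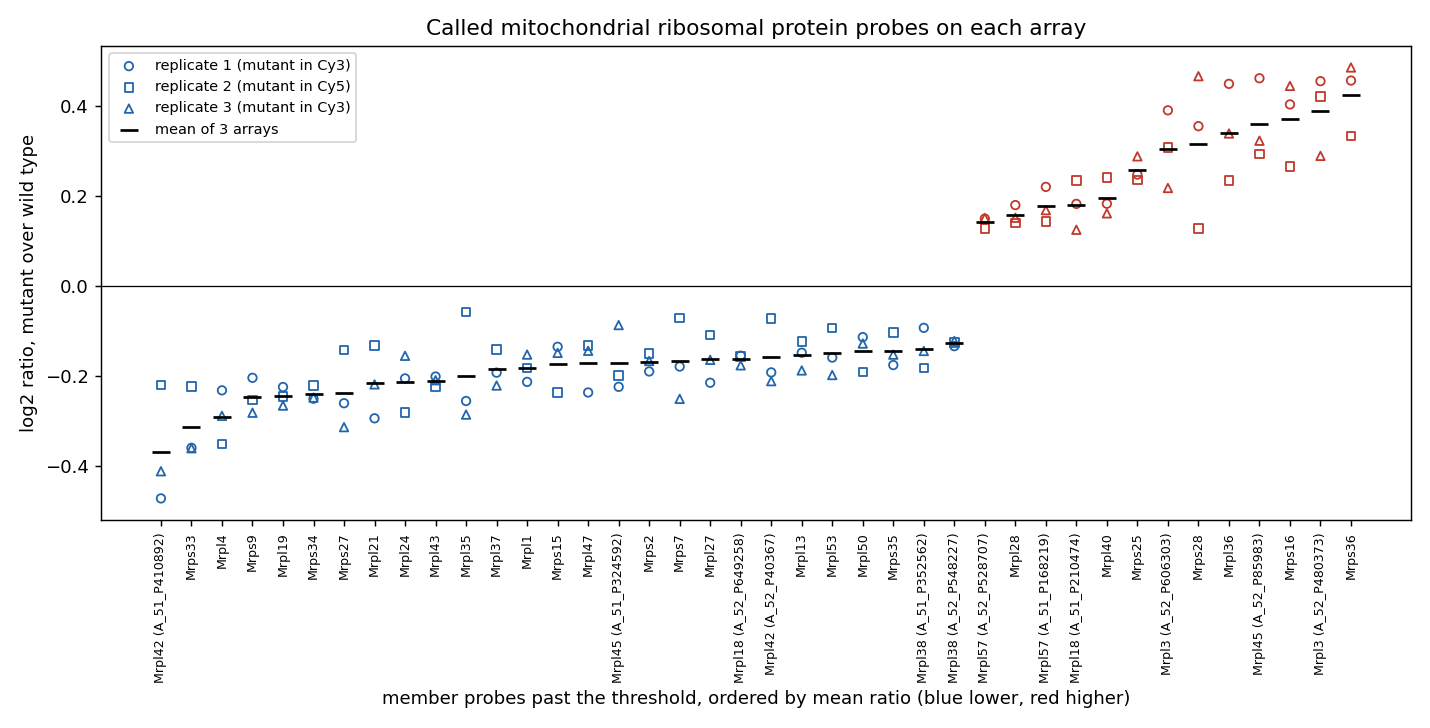
Log2 ratio of mutant over wild type (vertical axis) of the 40 called member probes, ordered by their mean, with circles, squares and triangles for replicates 1, 2 and 3 and a black bar for the mean. The 27 lower probes (blue) and the 13 higher probes (red) each lie on one side of 0 on all 3 arrays.

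Among the large subunit proteins of bacterial descent, 4 of 30 genes were higher and 9 lower. For this class and those below, the shares of all named genes were 16.0% higher and 20.0% lower by their brightest probe. Mrpl3 encodes a core protein of the large subunit close to the site of peptide bond formation. Its probe A_52_P480373 read 0.46, 0.42 and 0.29 on replicates 1, 2 and 3, a mean of 0.39 ± 0.09 (SD, n = 3; limma adjusted p 0.0048). A brighter probe, A_52_P606303, read 0.39, 0.31 and 0.22, a mean of 0.31 ± 0.09 (limma adjusted p 0.0083). The remaining Mrpl3 probe, A_51_P348976, gave 0.03, 0.09 and -0.06 and was not called. All 3 probes carry the same transcript accession, and the 2 called ones were above 0 on every array while the other straddled it. Mrpl36, the smallest kind of large subunit protein, gave 0.45, 0.23 and 0.34 (mean 0.34 ± 0.11, limma adjusted p 0.0082). The brightest probe of Mrpl28 was higher by less, at 0.16 ± 0.02, and its other probe, A_52_P180335, read -0.08, -0.15 and -0.06 and was not called. Mrpl18, of the central protuberance, counted as higher by its brightest probe at 0.18 ± 0.06, with another probe called lower.

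Lower members of that class differed in where they sit. Mrpl4, which lines the tunnel through which the new chain leaves, read -0.23, -0.35 and -0.29 on replicates 1 to 3, a mean of -0.29 ± 0.06 (limma adjusted p 0.0070). Mrpl24, which in bacteria helps begin large subunit assembly, read -0.20, -0.28 and -0.15 (mean -0.21 ± 0.06, limma adjusted p 0.0168). Mrpl19, at the face that meets the small subunit, was the tightest of these, with -0.22, -0.24 and -0.27 (mean -0.24 ± 0.02, limma adjusted p 0.0077). All 9 array values of these genes lie below 0, as the choice of called probes with one sign on all arrays requires. Mrpl21, a protein that contacts the large ribosomal RNA, gave -0.29, -0.13 and -0.22 (limma adjusted p 0.0210). Mrpl35 gave -0.26, -0.06 and -0.29 with an adjusted p of 0.0462 in limma, so replicate 2 lay near 0. A dimmer Mrpl35 probe, A_51_P351697, read -0.08, 0.12 and -0.10 and was not called. The other lower genes of the class, Mrpl1, Mrpl13, Mrpl27 and Mrpl47, had means between -0.18 and -0.15.

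Large subunit proteins found in mitochondria only also went both ways, with 3 of 18 tested genes higher and 5 lower. Mrpl42 held the lowest ratio of all members. Its probe A_51_P410892 read -0.47, -0.22 and -0.41, a mean of -0.37 ± 0.13 or 77.5% of wild type (limma adjusted p 0.0092). A second Mrpl42 probe, A_52_P40367, was also called lower, at -0.19, -0.07 and -0.21. Replicate 2, the array with exchanged dyes, was nearest to 0 for both. Mrpl45, which sits at the tunnel exit and ties the ribosome to the inner membrane, read 0.46, 0.29 and 0.32 with its brightest probe (mean 0.36 ± 0.09, limma adjusted p 0.0058). Mrpl40, whose human gene lies in the DiGeorge syndrome interval, was higher by its brightest probe, with 0.18, 0.24 and 0.16 (mean 0.20 ± 0.04, limma adjusted p 0.0167). Its dimmer probes, A_51_P278532 and A_51_P420627, were below 0 on every array, with means of -0.16 and -0.16, and were not called. Both probes of Mrpl57 were called higher, at 0.18 ± 0.04 for A_51_P168219 and 0.14 ± 0.01 for A_52_P528707, which falls outside the 12 highest. Mrpl37 was lower at -0.19, -0.14 and -0.22 (limma adjusted p 0.0197), and Mrpl38, Mrpl50 and Mrpl53 were lower with means between -0.15 and -0.14. Mrpl58, a peptidyl-tRNA hydrolase that frees stalled ribosomes, was not called at -0.02 ± 0.05.

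Small subunit proteins of bacterial descent were mostly not called, with 2 of 16 genes higher and 2 lower. Mrps16, loss of which causes a fatal disease of infants in humans, read 0.40, 0.27 and 0.45, a mean of 0.37 ± 0.09 (limma adjusted p 0.0057). Mrps28 read 0.36, 0.13 and 0.47, a mean of 0.32 ± 0.17 (limma adjusted p 0.0237), with replicate 2 well below the other arrays. Mrps9, whose bacterial counterpart reaches the transfer RNA in the peptidyl site, was lower at -0.20, -0.25 and -0.28 (mean -0.25 ± 0.04, limma adjusted p 0.0088). Its second probe read -0.12 ± 0.04 and was not called. Mrps15 was lower at -0.17 ± 0.06. Mrps12, which takes part in decoding, was not called at -0.02 ± 0.02.

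Small subunit proteins found in mitochondria only, with Mrps18b counted among them, had the lowest share above 0: 13 of their 14 probes lay below it. Of 10 genes, 4 were lower and 1 was higher. Mrps33 read -0.36, -0.22 and -0.36 with its brightest probe (mean -0.31 ± 0.08, limma adjusted p 0.0072), and its other two probes were below 0 on every array without being called. Mrps34, without which the small subunit is unstable in mice, was the most even of the group at -0.25, -0.22 and -0.25 (mean -0.24 ± 0.02, limma adjusted p 0.0080). Mrps27, an RNA-binding pentatricopeptide repeat protein, read -0.26, -0.14 and -0.31 (limma adjusted p 0.0170) from one of the dimmest member probes, and its mean of -0.24 became -0.46 with the negative control level subtracted. Mrps35 was lower at -0.14 ± 0.04. Mrps25 was the exception, higher at 0.25, 0.24 and 0.29 on the 3 arrays (mean 0.26 ± 0.03, limma adjusted p 0.0072). The class medians of all probes were -0.12 here, -0.06 for the bacterial type of small subunit protein, -0.09 for the bacterial type of the large subunit and -0.07 for its mitochondrial type. No test of a difference between classes was made.

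Mrps36 had the highest ratio of all members. It carries a ribosomal name but its protein was later placed in the 2-oxoglutarate dehydrogenase complex of the citrate cycle. Its probe A_51_P190690 read 0.46, 0.33 and 0.49, a mean of 0.43 ± 0.08 or 134% of wild type (limma adjusted p 0.0038). The other Mrps36 probe, A_51_P190697, has the same accession and read -0.01, -0.04 and 0.09, so its values do not overlap those of the first.

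Probes of one gene often disagreed. Of 24 member genes with more than 1 probe, 9 had probes on both sides of 0 (37.5%), beside 42.0% of 3270 such genes among all named genes, and the median range between probes was 0.18 against 0.16. Called in both directions were 2 genes (8.33%, beside 6.06% of all). Mrpl45 was one, since its dimmer probe A_51_P324592 read -0.22, -0.20 and -0.09 and was called lower at -0.17 ± 0.07 (limma adjusted p 0.0365), or -0.25 with the negative control level subtracted, against 0.36 for the brighter. Mrpl18 was the other, with A_51_P210474 at 0.18, 0.24 and 0.13 (limma adjusted p 0.0242) and A_52_P649258 at -0.15, -0.16 and -0.18 (limma adjusted p 0.0236). Its remaining probe, A_52_P495243, read -0.12 ± 0.07 and was not called. With probes called in opposite directions, the direction of Mrpl18 and Mrpl45 transcripts is not settled here. Mrpl40 also split, its other probes giving -0.16 and -0.16 without a call, and its direction is not settled here either. For Mrpl43 the bright probe A_51_P255441 read -0.04, 0.05 and -0.01 while A_52_P374351 was called lower at -0.20, -0.22 and -0.21 (limma adjusted p 0.0111). Mrpl38, Mrpl42 and Mrpl57 were the genes whose probes were all called, each in one direction.

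**Figure D2:**
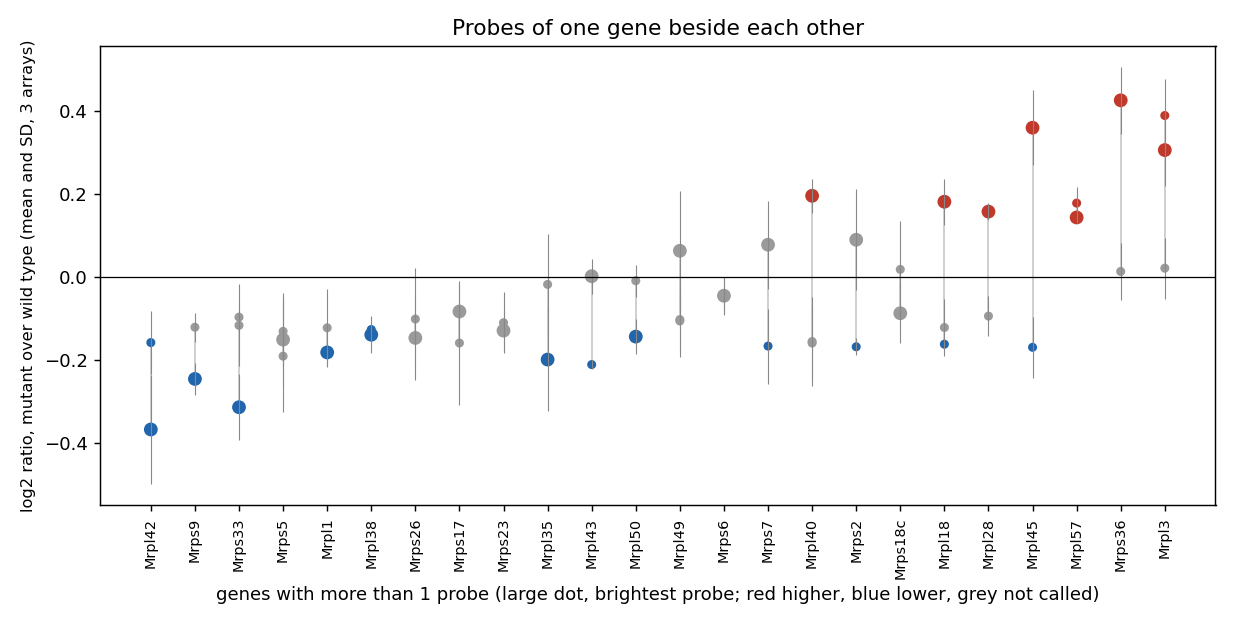
Mean log2 ratio and SD over 3 arrays (vertical axis) of each probe of the 24 member genes with more than 1 probe, ordered by their mean; large dots are the brightest probes, red is called higher, blue lower and grey not called. Mrpl45 and Mrpl18 hold a red and a blue dot, and Mrps36 and Mrpl3 hold called probes beside one near 0.

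Across member probes, brightness, the mean signal of a probe over arrays and channels, went with the direction of the ratio. Over the 105 member probes the ratio correlated with log2 brightness at r = 0.406 (0.369, 0.288 and 0.441 on replicates 1, 2 and 3), where over all tested probes r was -0.03. These probes share the 3 arrays, and the values are descriptions. Within the 24 member genes with more than 1 probe, the brightest probe read above the dimmest in 11 (45.8%), with a median difference of -0.007. For the 3270 such genes among all named genes these values were 54.5% and 0.025. All tested probes were divided by brightness into 4 groups of equal size, numbered from the dimmest. In group 4, with 62 member probes, 11 were higher and 10 lower (17.7% and 16.1%, beside 23.6% and 26.6% of all probes there) and the median was -0.01. Group 3 held 30 member probes, with 1 higher and 13 lower (3.33% and 43.3%, beside 18.2% and 22.6%) and a median of -0.15. In group 2, 1 of 11 was higher and 3 lower, beside 13.1% and 17.3%. Group 1 held 2 member probes, 0 higher and 1 lower, beside 5.25% and 8.88%. Over all tested probes the group medians lay between -0.01 and 0.00, and the member median of -0.15 stood below that of all probes of its own group.

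The relation to brightness had the same sign under other treatments of the signal. With a within-array loess curve removed it was 0.392 over the members, with the negative control level subtracted 0.471, and with each of the arrays left out in turn 0.415, 0.422 and 0.351.

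**Figure D3:**
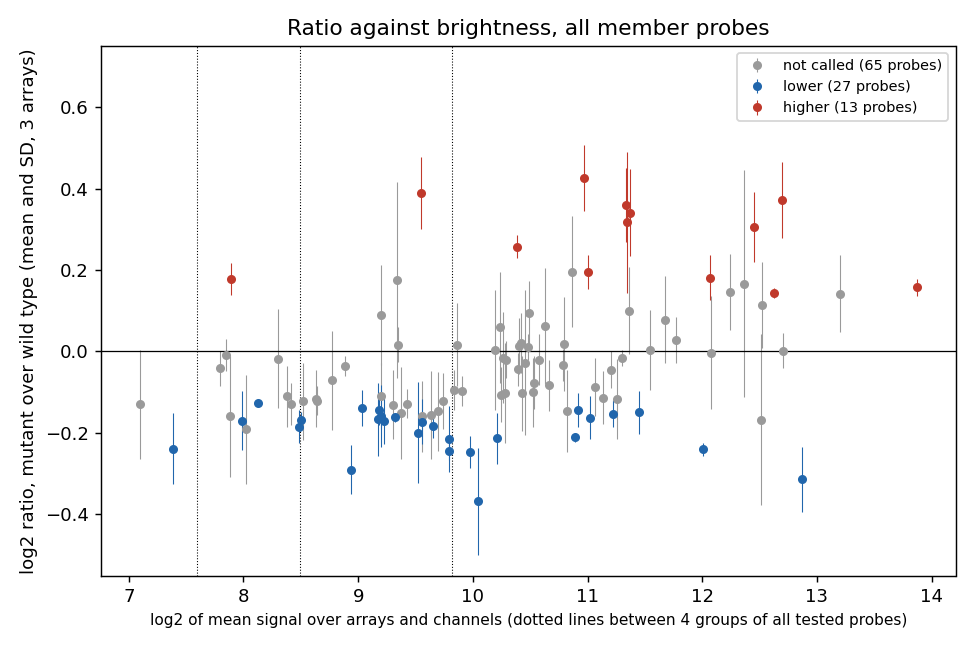
Mean log2 ratio with SD over 3 arrays (vertical axis) against the log2 of mean signal (horizontal axis) for all 105 member probes, with dotted lines between the 4 brightness groups of all tested probes. Of the 13 higher probes 11 lie in group 4, the brightest, and 13 of the 27 lower ones lie in group 3.

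**Figure D4:**
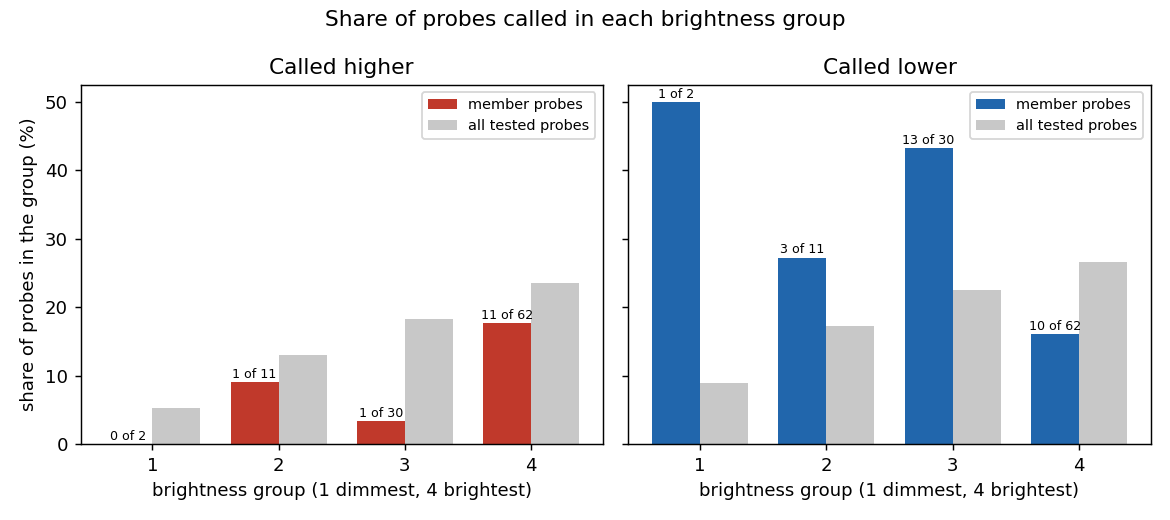
Share of probes called higher (left) and lower (right) in each of the 4 brightness groups, for member probes (coloured, with counts) and all tested probes (grey). In group 3, 43.3% of member probes were lower against 22.6% of all, and in group 4, 16.1% against 26.6%.

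The 5 brightest member probes were those of Mrpl28, Mrpl20, Mrps33, Mrpl43 and Mrps16. Mrpl28, a large subunit protein, read 0.18, 0.14 and 0.15 (limma adjusted p 0.0265), and Mrpl20, needed in bacteria for large subunit assembly, read 0.15, 0.23 and 0.04 without a call. The brightest probes thus include genes called higher, called lower and not called. The 5 dimmest were those of Mrps18b, Mrps27, Mrpl9, Mrpl50 and Mrps17. Of these, Mrps18b read -0.24, 0.02 and -0.17, Mrpl9 0.01, -0.05 and -0.08, Mrpl50 (A_52_P432780) 0.02, -0.05 and 0.00, and Mrps17 (A_51_P121397) -0.16, -0.01 and -0.31. None of those 4 was called, and only the dim probe of Mrps27 was.

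Other genes of mitochondrial translation also went both ways, as did all named genes, 16.0% higher and 20.0% lower by their brightest probe. Among 5 subunits named otherwise, Dap3, a GTP-binding small subunit protein, was higher at 0.20 ± 0.05 (limma adjusted p 0.0185), Gadd45gip1 read -0.09, Chchd1 0.11 and Ptcd3 0.02 without a call. Of 21 assembly factors 4 were higher and 4 lower. The methyltransferase Mrm1 was higher at 0.42 ± 0.08 and Mterf3 at 0.36 ± 0.08 (limma adjusted p 0.0038 and 0.0055). The helicase Ddx28 was lower at -0.32 ± 0.05 and the small subunit factor Rbfa at -0.26 ± 0.11 (limma adjusted p 0.0054 and 0.0166). Of 14 translation factors and messenger RNA partners 1 was higher, the GTPase Guf1 at 0.19, and 3 were lower. The lower ones were Lrpprc, which stabilises mitochondrial messenger RNA, at -0.36 ± 0.04, Oxa1l, the insertase for newly made inner membrane proteins, at -0.22 ± 0.01 and the initiation factor Mtif3 at -0.14.

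Of 17 enzymes that charge mitochondrial transfer RNA, limma called 0 higher (1 at an unadjusted p under 0.05) and 5 lower. The shares of all named genes were 16.0% and 20.0%. Pars2 was lower at -0.23 ± 0.03 and Fars2 at -0.39 ± 0.17 (limma adjusted p 0.0099 and 0.0118), and Iars2 at -0.19. Lars2 gave -1.49, -2.16 and -0.51 on replicates 1, 2 and 3, lower on each but with an SD of 0.83 (limma adjusted p 0.0206). Transcription factors of the organelle and its nuclear regulators gave 4 higher and 3 lower of 12. Gabpa, whose protein binds the ETS element, was higher at 0.31 ± 0.08, as were the mitochondrial RNA polymerase Polrmt at 0.31 ± 0.12 and its partner Tfb2m at 0.22 ± 0.07, though a second Tfb2m probe read -0.06. The coactivator Ppargc1b was lower at -0.50 ± 0.12 (limma adjusted p 0.0043). Of other regulators of the promoter elements searched, Yy1 was lower at -0.24 ± 0.12 (limma adjusted p 0.0265), and Nrf1 was not called at -0.01.

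Cytosolic ribosomal proteins and complex I were set beside the members as the other large assemblies of like kind. Of 120 probes for cytosolic ribosomal proteins 5 were higher and 53 lower, with a median of -0.12, and of 43 probes for complex I 4 were higher and 21 lower, with a median of -0.16. By gene, 35 of 83 cytosolic ribosomal proteins and 17 of 33 complex I subunits were lower, against 20 of 75 members, and 2 and 3 were higher against 11. Of all tested probes 18.9% were lower and 15.0% higher, and of all named genes 20.0% and 16.0%. The lists also differed in brightness, with median signals of 8273 for cytosolic ribosomal proteins, 5839 for complex I and 1226 for the members. Bright probes were called more often, and the lists were not matched for this. Rpl10 at -0.68 and Rps26 at -0.63 among the former, and Ndufa10 at -0.50 among the latter, lay below the lowest member. No test of a difference between these lists was made.

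**Figure D5:**
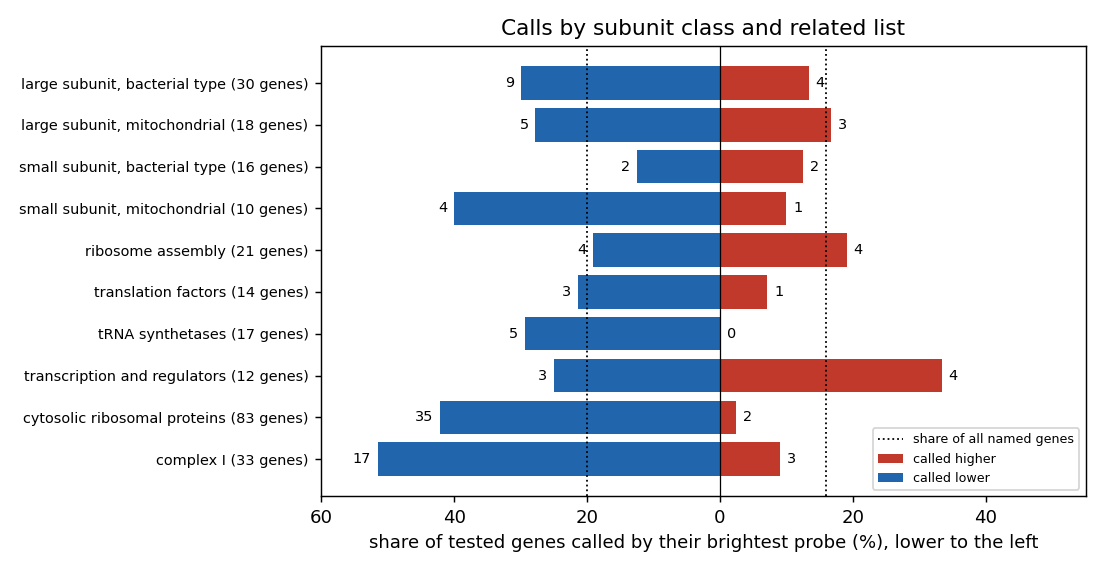
Share of tested genes called higher (red, right) and lower (blue, left) by their brightest probe in each subunit class and related list, with counts at the bars and dotted lines at the shares of all named genes, 16.0% and 20.0%. Cytosolic ribosomal proteins, with 35 of 83 lower, and complex I, with 17 of 33, have longer blue bars than each of the 4 member classes.

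Markers of cell types and neighbouring regions differed on the same arrays, where 20.0% of all named genes were called lower and 16.0% higher. Called lower were 4 of 8 cortical neuron, 4 of 6 astrocyte, 2 of 6 oligodendrocyte, 4 of 6 microglia, 2 of 4 blood and 2 of 6 striatum markers. Called higher were 2 of 6 endothelium and pericyte, 1 of 6 astrocyte, 2 of 5 choroid plexus and ependyma and 1 of 5 thalamus markers, and 1 endothelium and pericyte marker was lower. The thalamus probes averaged -0.04, -0.07 and 0.70 on replicates 1, 2 and 3, and the choroid plexus probes 0.14, 0.13 and 0.19, while the member probes averaged -0.04, -0.03 and -0.05. In bulk tissue, fewer cells of a type and less RNA per cell cannot be told apart, and the part of tissue makeup in the member ratios was not tested.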

How the data were processed

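Two-colour Agilent arrays of pooled cortex RNA were used, 3 in all, 500 ng of RNA each with an RNA integrity number of at least 7, per the labels' protocols. The authors deposited a linear intensity per spot and channel, already background-subtracted and normalized (method not given in the sources used here), a log2 ratio of them, and a signed fold (a score per spot in which a ratio under 1 appears as its negative inverse) per the file headers and the deposited readme. The value table of the series equals that fold at every spot, with medians of -1.01, -1 and 1 on replicates 1, 2 and 3, and was not used further; it settles scale and direction only as far as that fold does. Columns hold genotypes: Pro25G control spots had median log2 ratios of 4.51, -4.54 and 4.58, turning over with the dyes.

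Computed here were log2 ratios of the 2 deposited channels as they stood, averaged over spots of a probe. Probes that the authors marked reliable (foreground over 2 times background) on at least 2 arrays were tested, 27530 of 41174; reliable gene spots made up 67.8%, 64.4% and 69.7% of replicates 1, 2 and 3. Accessions named 52.1% of probes through RefSeq on GRCm38.p6. Each mean was tested against 0 with limma 3.58.1 in R 4.3.3, Benjamini-Hochberg over all tested probes, threshold 0.05, after a check on simulated data. Figures used Python 3.11.15, pandas 2.3.3 and matplotlib 3.10.9.

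Named with array values are the 12 highest and 12 lowest called member probes with one sign on all arrays, the 5 brightest, the 5 dimmest and genes called in both directions; other probes are named beside those, or as examples chosen after their values were seen. From related lists, genes were named from the 4 with the smallest p, and others are given as such examples. Subunit classes mostly follow textbook homology. Mrps18a and Mrps30 are counted with the large subunit proteins found in mitochondria only, and Mrps18b with those of the small subunit. Mrpl55 is counted with proteins of bacterial descent. Symbols alone chose the cytosolic ribosomal protein and complex I lists. The members and lists were chosen with earlier results of these data known. Alternatives covered normalization, background, filter, variance model, dye, probe choice and left-out arrays.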

Additional observations from a re-analysis of the deposited data

How the results depend on the processing

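Of 40 called member probes, 0 changed sign in any of the 15 alternative settings that were refitted by probe. Each of them has one sign on all 3 arrays, so settings that only average, weight or leave out arrays could not change it. Settings of the filter or variance model leave the mean ratio as it is. Array weights gave 72 called probes, 21 higher and 51 lower, with 19 genes higher and 33 lower and a median of -0.065, while 18617 of all tested probes were then called. With replicates 1 and 2 averaged and counted as 1, 17 were called, 8 higher and 9 lower, with 7 genes higher and 8 lower, beside 18.6% of all tested probes. A B statistic above 0 left 4, with 4 higher and 0 lower; in the main limma fit 57 members had an unadjusted p under 0.05. Subtracting the negative control level left 13 genes lower, and fitting the mean over the probes of a gene left 7 genes higher. Leaving out one array at a time gave 3 to 34 called probes, 2 to 14 higher and 1 to 22 lower, 1 to 12 genes higher and 1 to 15 lower, and medians from -0.098 to -0.069. Of all tested probes 8.75%, 25.6% and 35.9% were called without replicates 1, 2 and 3. Without replicate 1, 37 of the 40 calls were lost and 3 remained; fewer arrays enter such fits. A dye term was called for 0 of 27530 probes in limma, with 2409 at an unadjusted p under 0.05, 9 of them members. Loess kept 38 of the 40 calls and the deposited log2 ratio 39. With the negative control level subtracted 28 of the 40 were kept and 12 lost, while 8593 of all 27530 tested probes were called. Without the filter 30 were kept and 10 lost, while 8230 of all 41174 probes were called. Mutant and wild type are paired within each array, and the test of the ratios against 0 uses that pairing. Small ratios of dim probes are limited by signal close to background.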
